A study of Caenorhabditis elegans with 2 samples.

Results

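The cytosolic ribosomal protein genes of Caenorhabditis elegans are the protein-coding genes named rpl-* for the large subunit and rps-* for the small subunit in the Ensembl annotation, and 78 of 19985 protein-coding genes met that rule, 47 of the large and 31 of the small subunit. Their promoters were read from peak lists of chromatin immunoprecipitation and sequencing (ChIP-seq) for NHR-102, one of the many nuclear hormone receptors of the worm. The animals were whole hermaphrodites of strain OP463, genotype unc-119(tm4063) III with the transgene wgIs463, which carries NHR-102 joined at its C-terminus to GFP and FLAG. They were L4 larvae taken 50 h after synchronization by bleaching and L1 starvation, and both biological replicates form 1 group. The sample description names an antibody against GFP for the immunoprecipitation, while the antibody field of the labels reads nhr-102. The promoter that drives the tagged gene is not given in the sources used here. Without an untagged strain or a control group, binding of NHR-102 and other sources of signal at a promoter cannot be told apart. In whole animals the tissue of a peak is unknown.

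The ribosome joins a large subunit, which holds the peptidyl transferase centre, to a small subunit, which decodes the messenger RNA. Each cytosolic ribosomal protein is needed in nearly equal amount, so these genes are among the most strongly transcribed of a growing animal and are a standard case of coordinated expression. In C. elegans many of them are short genes whose messages are trans-spliced to a leader, and the annotated 5' end then often marks the splice acceptor and not the start of transcription. That end lay a median of 8 nt from the start codon over the 78 genes, and under 20 nt from it in 58. Transcription then starts upstream of the annotated end, and how far upstream was not measured here, so a summit upstream of that end may lie on either side of the start.

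Of the 78 genes, 49 had a summit of the authors' optimal list in the promoter window (62.8%, Clopper-Pearson 95% interval 51.1 to 73.5). Over all protein-coding genes the percentage was 8.95. The window began 1000 bp before every annotated 5' end and closed 200 bp after it, and a summit is the position of highest signal in a peak. The strongest belonged to the large subunit, with rpl-3, rpl-20, rpl-35 and rpl-15 among the 50 strongest of the 2796 peaks. Their summits lay in a narrow zone, with a median of -291 bp from the 5' end, where negative values are upstream. Near these summits 4 short words recurred, and in 10 of the 46 distinct summit windows 1 of them was joined to part of another. The intervals cover counting error only, and genes that share a summit are not independent.

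The DNA around strong summits of each subunit is shown first, for the 4 strongest of the large subunit and for rps-1, the strongest of the small subunit. Each sequence below holds 201 bases centred on the summit, in ce11 coordinates from the RefSeq assembly WBcel235, which is the same sequence, and is written 5' to 3' on the strand of the gene. Capitals mark any of the words GGCCTAAA, AACGAGTG, GCGAGACC and TACGGTAA on either strand. Of these 5 sequences, those of rpl-3, rpl-20 and rps-1 hold TACGGTAA, and those of rpl-3 and rpl-15 hold GGCCTAAA. That of rpl-35 holds none of the words, though GGCCTAAA lies at -203 bp in its wider promoter window.
rpl-3, III:3867475-3867675, strand +: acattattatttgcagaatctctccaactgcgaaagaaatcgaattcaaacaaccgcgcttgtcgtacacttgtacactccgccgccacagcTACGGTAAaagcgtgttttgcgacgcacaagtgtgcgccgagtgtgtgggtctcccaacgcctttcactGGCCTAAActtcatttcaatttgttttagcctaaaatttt
rpl-20, IV:4749965-4750165, strand -: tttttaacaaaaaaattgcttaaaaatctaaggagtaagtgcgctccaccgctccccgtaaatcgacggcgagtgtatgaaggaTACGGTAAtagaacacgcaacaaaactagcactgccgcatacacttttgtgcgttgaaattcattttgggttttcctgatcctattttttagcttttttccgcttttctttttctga
rpl-35, III:7854589-7854789, strand +: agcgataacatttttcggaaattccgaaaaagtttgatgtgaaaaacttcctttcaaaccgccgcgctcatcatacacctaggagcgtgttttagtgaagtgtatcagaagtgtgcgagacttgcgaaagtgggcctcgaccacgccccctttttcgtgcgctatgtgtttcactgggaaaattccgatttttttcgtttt
rpl-15, IV:654828-655028, strand -: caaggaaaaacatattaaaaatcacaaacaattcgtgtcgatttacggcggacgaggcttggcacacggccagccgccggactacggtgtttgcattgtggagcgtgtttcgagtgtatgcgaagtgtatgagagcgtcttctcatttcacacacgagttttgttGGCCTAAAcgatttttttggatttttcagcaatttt
rps-1, III:4475567-4475767, strand +: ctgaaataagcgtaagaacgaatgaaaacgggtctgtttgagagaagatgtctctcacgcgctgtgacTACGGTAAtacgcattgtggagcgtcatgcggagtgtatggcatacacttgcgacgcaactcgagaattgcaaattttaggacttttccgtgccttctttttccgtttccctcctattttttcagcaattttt

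The next set was chosen because in it AACGAGTG is joined to all or part of TACGGTAA read on the other strand. In these 6 promoters AACGAGTG was followed, after 3 bases, by CCGTA, a joined element that is read here on either strand. Where those 3 bases are TTA, the capitals run on, because TACGGTAA read on the other strand then overlaps the element.
rpl-21, III:8130473-8130673, strand -: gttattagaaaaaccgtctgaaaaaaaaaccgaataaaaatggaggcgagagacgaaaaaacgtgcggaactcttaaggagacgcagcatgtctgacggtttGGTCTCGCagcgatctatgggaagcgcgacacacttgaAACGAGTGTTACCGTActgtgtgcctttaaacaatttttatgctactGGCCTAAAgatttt
rpl-11.2, X:2242887-2243087, strand -: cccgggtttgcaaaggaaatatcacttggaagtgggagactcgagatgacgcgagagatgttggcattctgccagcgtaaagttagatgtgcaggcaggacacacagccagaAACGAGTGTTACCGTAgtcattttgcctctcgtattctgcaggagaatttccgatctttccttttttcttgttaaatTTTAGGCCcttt
rps-18, IV:14824952-14825152, strand +: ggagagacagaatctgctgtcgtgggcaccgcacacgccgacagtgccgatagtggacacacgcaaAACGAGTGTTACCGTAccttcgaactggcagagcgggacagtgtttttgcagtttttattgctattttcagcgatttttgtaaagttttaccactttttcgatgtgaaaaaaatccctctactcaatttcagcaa
rps-23, IV:12391244-12391444, strand -: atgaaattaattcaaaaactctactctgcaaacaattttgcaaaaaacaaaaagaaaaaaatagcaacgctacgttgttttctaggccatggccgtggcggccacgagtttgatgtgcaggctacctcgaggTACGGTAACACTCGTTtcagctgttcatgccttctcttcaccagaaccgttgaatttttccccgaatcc
rpl-6, III:7207997-7208197, strand +: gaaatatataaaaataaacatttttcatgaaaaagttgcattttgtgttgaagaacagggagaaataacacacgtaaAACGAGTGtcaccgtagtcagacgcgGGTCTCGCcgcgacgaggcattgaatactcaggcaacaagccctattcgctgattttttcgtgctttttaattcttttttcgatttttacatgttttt
rps-29, III:793691-793891, strand +: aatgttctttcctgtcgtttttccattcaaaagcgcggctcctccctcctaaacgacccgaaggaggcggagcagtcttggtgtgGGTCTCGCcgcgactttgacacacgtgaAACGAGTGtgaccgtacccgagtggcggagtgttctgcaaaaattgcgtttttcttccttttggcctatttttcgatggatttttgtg

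The joined element stood in 10 of the 46 distinct summit windows of ribosomal protein genes (21.7%), against 6 of 1461 other promoter summits of the nuclear genome (0.411%). Besides the 6 shown, the large subunit genes rpl-1 and rpl-29 and the window shared by rpl-24.1 and rps-10 were among those that held it. The element was found by reading these same windows, so the difference in share is a description and carries no test. In a window of the same length placed at -291 bp in every gene, it stood in 10 of the 49 genes with a summit and 1 of the 29 without. As -291 bp is the median summit position of those 49 genes, this window is not independent of their summits. Among the other 19907 genes 14 held it in that fixed window (0.0703%), of which 8 had a promoter summit. Of these, dpm-3, C14B9.10 and ify-1 lay at summits already counted for rps-23, rpl-21 and rpl-22, and ile-2 and trap-2 shared a summit. The fixed window missed the element at rps-18 and rps-29, which had a summit, with AACGAGTG at -657 and -492 bp. It also missed the element at rps-13 and rpl-34, which had no optimal summit, with AACGAGTG at -175 and -426 bp. The counts of 10 and 1 thus hold for the fixed window only. For 5 of the 14 other genes with it in the fixed window, among them dpm-3 and C14B9.10, the upstream neighbour was a ribosomal protein gene. The other promoter summits with the element were those of F25H2.6 and ndk-1, a nucleoside diphosphate kinase (signal 469), ile-2 and trap-2 (430), eel-1, a ubiquitin ligase (331), npp-3 and top-2, DNA topoisomerase 2 (287), T26A8.4 and pdtf-1 (247), and rpn-5, a proteasome subunit, with the cohesin gene scc-1 (99.9).

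Taken singly, the words were chosen as the 8-base words whose share among the 46 windows most exceeded that among the other promoter summits, leaving out words made almost wholly of A and T and any that overlapped an earlier word by 5 letters. GGCCTAAA stood in 13 windows (28.3%, against 0.548%), AACGAGTG in 11 (23.9%, against 1.37%), GCGAGACC in 11 (against 3.01%) and TACGGTAA in 10 (21.7%, against 1.3%). At least 1 of them was in 29 windows (63%, against 5.68%) and at least 2 in 12 (26.1%, against 0.479%). A match is a description of the letters, not a site. Since the words were picked for that excess, the shares give no independent support for it.

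The words differed in where they lay. Measured from the summit, the median distance was 14 bp for GCGAGACC, 17 bp for AACGAGTG and 19 bp for TACGGTAA, but 68 bp for GGCCTAAA. Within the whole promoter window, GGCCTAAA matched 14 of the 49 genes with a summit, at a median of -255 bp, and 11 of the 29 without, at -219 bp. GCGAGACC likewise matched 13 with a summit, at -271 bp, and 10 without, at -298 bp. AACGAGTG matched 13 with and 3 without, and TACGGTAA 11 with and 3 without. In the fixed window at -291 bp, GGCCTAAA stood in 10 of the 49 genes with a summit and 7 of the 29 without, and GCGAGACC in 12 and 7. The corresponding counts were 11 and 1 for AACGAGTG, and 10 and 0 for TACGGTAA. In the same window the 4 words had shares of 0.673%, 0.407%, 1.07% and 0.784% among the other genes, in the order GGCCTAAA, AACGAGTG, GCGAGACC and TACGGTAA. In these counts GGCCTAAA and GCGAGACC occurred in ribosomal protein genes with and without a listed summit. AACGAGTG and TACGGTAA were less frequent in genes without one, though over the whole promoter window 3 of those 29 genes held each. All 4 words had been chosen on the genes with a summit.

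**Figure D1:**
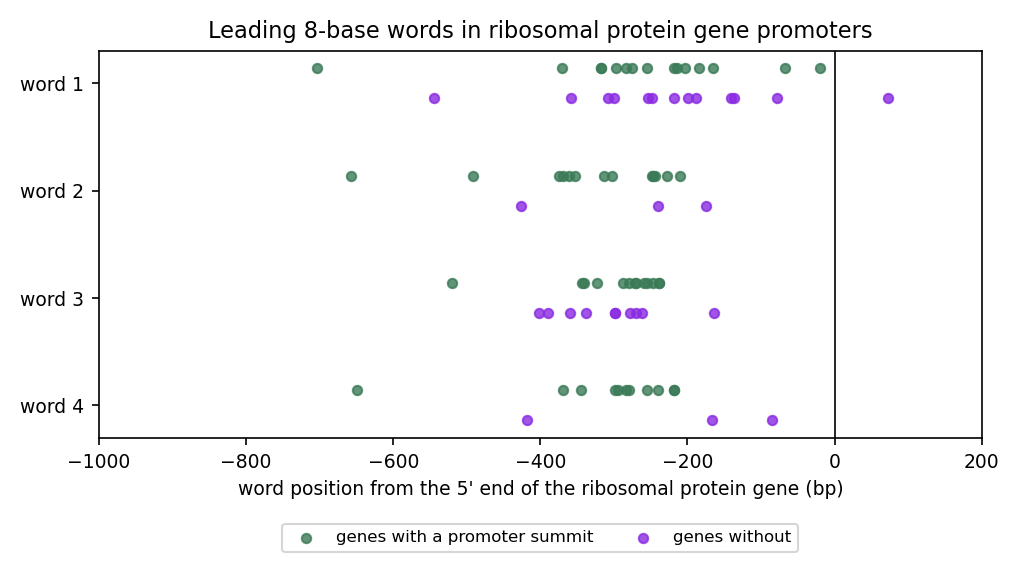
Positions of the words in the promoter windows of ribosomal protein genes, in bp from the annotated 5' end (vertical line), for genes with (green) and without (purple) a summit in the optimal list. Word 1 is GGCCTAAA, word 2 AACGAGTG, word 3 GCGAGACC and word 4 TACGGTAA, and words 2 and 4 have 3 matches each among the genes without a summit.

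Motifs listed from general knowledge lay on both sides of their share at the other promoter summits. The nuclear receptor half-site AGGTCA was in 1 of the 46 windows (2.17%, against 5.75% of the other promoter summits), and the GATA factor word TGATAA in 5 (10.9%, against 25%). The E-box CACGTG stood in 4.35% against 8.69%, the ETS core CCGGAA in 0 windows against 4.59%, and the TATA box core TATAAA in 8.7% against 19.6%. The GA repeat GAGAGA was in 21.7% against 30.9%, CTTCTC in 10.9% against 18.3%, and CTGCGTC in 4.35% against 12.9%. Higher than at the other summits were the T run TTTTTT (73.9% against 50.4%), the splice acceptor core TTTCAG (34.8% against 21.7%), CGACG (30.4% against 24.4%) and CGCAGG, the core of the X recruitment motif (13% against 5.48%). Both strands were searched in each case, and absence of a match says only that these letters are not in the window. The base composition was alike, at 41.9% G and C around ribosomal protein summits and 41.7% around the others.

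The comparison of the subunits asked whether the signal lay at one kind of gene more than the other. A promoter summit was listed for 28 of the 47 large subunit genes (59.6%, exact 95% interval 44.3 to 73.6) and 21 of the 31 small subunit genes (67.7%, 48.6 to 83.3), intervals that overlap widely. The median signal was 194 for large and 200 for small subunit summits. At the upper end, 6 of the 8 ribosomal protein summits among the 100 strongest peaks, and all 4 among the 50 strongest, were at large subunit genes. Large subunit genes were 28 of the 49 genes with a summit, and with so few peaks a difference between the subunits was not tested. The highest small subunit signal was 786 and the highest large subunit signal 1849. Signal is the authors' own value from their peak caller, and it is compared only within a list.

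Because neighbouring genes can share a window, the 49 genes rested on 46 distinct summits. At 3 of them a large and a small subunit gene stood head to head, transcribed away from each other from a common stretch. The pair rpl-24.1 and rps-10 shared a summit of signal 200, and rpl-36 and rps-14 one of signal 212, which also lay in the window of ndab-2. The third pair, rpl-39 and rps-30, shared a summit of signal 119 with C26F1.3. In all, 30 of the 46 summits lay in the windows of at least 2 protein-coding genes and 16 in that of 1 gene only. Each of the 49 genes had a single optimal summit.

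As a group, the ribosomal protein summits stood high in the optimal list. Their signals ran from 91.4 to 1849 with a median of 194, against a median of 143 for the 1480 other promoter summits. The stronger 50% of the list held 35 of the 46 (76.1%), against 49.9% of the others. The median peak width was 444 bp in both sets. Many ribosomal protein peaks had exactly this width, so the equal medians do not show whether width differed.

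**Figure D2:**
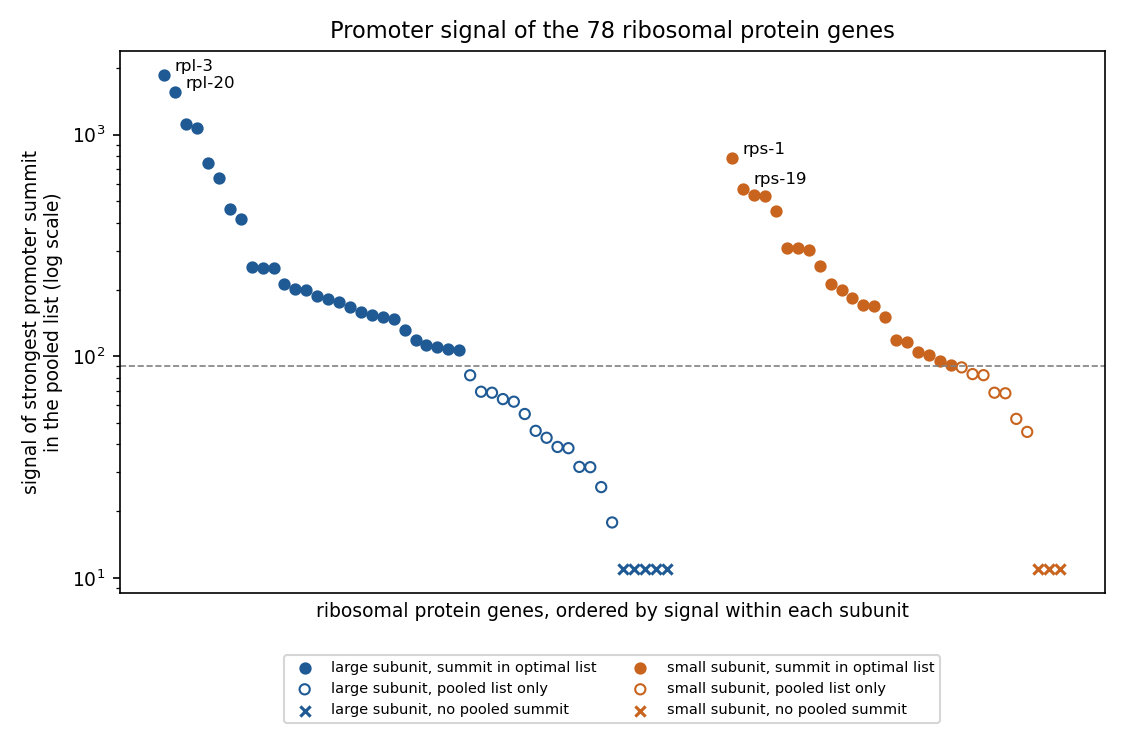
Signal of the strongest promoter summit of each of the 78 ribosomal protein genes in the pooled list (log scale), ordered within the large (blue) and small (orange) subunit. Filled points are in the optimal list, open points in the pooled list only, and crosses at the foot mark the 8 genes with no pooled summit, which have no value. The dashed line is the lowest optimal signal, 90.5, and rpl-3 and rpl-20 stand highest.

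Among large subunit genes, rpl-3 led the list. The roles given here are those known from yeast and mammalian ribosomes. The protein of rpl-3 lies next to the peptidyl transferase centre, and the peak of the gene (III:3867250-3867839) had signal 1849 and rank 10 of 2796. In the separate lists it had signal 925 and rank 12 in replicate 1, and 927 and rank 10 in replicate 2. The summit lay at -279 bp in intergenic sequence, and the window of no other protein-coding gene held it. The next was rpl-20 (IV:4749830-4750314), with signal 1556 and rank 25, and with ranks 25 and 22 in the replicates. Its summit, at -287 bp, also fell in the window of Y17G9B.5.

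Next came rpl-35, whose protein sits near the mouth of the exit tunnel, with signal 1122 and rank 35 (replicate ranks 35 and 33) at -445 bp. For rpl-15, a core protein of the large subunit, the signal was 1074 and the rank 37 (replicate ranks 36 and 39), at -352 bp and shared with K11H12.8. These 4 genes thus kept nearly the same place in both replicates. The summit of rpl-12, a protein of the stalk base, stood closest to its 5' end, at -21 bp, with signal 743 and rank 63 (replicate ranks 61 and 67). It was shared with lin-54, a DNA-binding subunit of the DRM complex. That of rpl-7A lay at -75 bp and was shared with set-21, with signal 635 and rank 86 (replicate ranks 92 and 83).

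Lower in the order of the large subunit, signal fell steeply. The gene rpl-24.2, whose yeast counterpart acts in the assembly of the large subunit, had signal 464 and rank 146 (replicate ranks 129 and 169) at -163 bp, inside the gene C03D6.1. For rpl-11.2, which binds the 5S ribosomal RNA together with rpl-5, the signal was 417 and the rank 181 (replicate ranks 191 and 184) at -369 bp on X. Both rpl-22 (signal 253, shared with ify-1, the worm securin) and rpl-6 (signal 251) were near rank 500 in the optimal list, at 506 and 511. Of these, rpl-6 had replicate ranks 507 and 592 and rpl-22 781 and 344, so the latter moved more between replicates. Below these the large subunit signals went down to 107 at rpl-36.A.

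The small subunit was led by rps-1, whose human counterpart is RPS3A, with signal 786 and rank 59 (III:4475492-4475831). It ranked 59 in replicate 1 and 60 in replicate 2, and its summit at -251 bp was shared with ifet-1, a translational repressor of the germ line. The signal of rps-19, whose human counterpart is mutated in Diamond-Blackfan anaemia, was 571 at rank 99 (replicate ranks 125 and 87), at -277 bp and shared with hsr-9. Then came rps-12 with 536 at rank 108 (replicate ranks 105 and 128), -158 bp and shared with the kinetochore gene ska-3. No small subunit gene reached the 50 strongest peaks.

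Close behind, rps-15 had signal 530 (replicate ranks 104 and 133) at -377 bp, in a window shared with F36A2.9, and rps-20 had 452 (140 and 194) at -227 bp, shared with ekl-4. The next 3 genes had signals close to each other. They were rps-23, a protein of the decoding centre (signal 309, replicate ranks 414 and 289, -291 bp), rps-26, a protein of the mRNA exit channel (308, 424 and 259, -394 bp), and rps-28 (302, 331 and 406, -436 bp). The 8 strongest small subunit summits were all shared with a neighbour that is no ribosomal protein gene. Among the 10 strongest of the large subunit, rpl-3, rpl-35, rpl-24.2, rpl-11.2 and rpl-6 were not shared.

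At the lower limit of the optimal list, rps-16 had signal 91.4 and rank 2757. Its summit lay at 149 bp, inside the gene, and it was the only one downstream of a 5' end. Replicate 1 placed it at rank 4838 and replicate 2 at 2326. Just outside, the strongest pooled summits of genes without an optimal one were those of rps-22 (89.1, pooled rank 2856), rps-8 (83.1, rank 3157), rps-13 (82.2, rank 3215) and rpl-33 (82.1, rank 3225). The optimal peaks were exactly the 2796 strongest of the pooled list, so these genes differ from rps-16 by a small step in signal.

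The replicates gave closely similar orders. All 46 ribosomal protein summits were covered by a peak in both replicate lists, and 38 were among the 2796 strongest of both. A further 4 were among the strongest of replicate 1 only, 3 of replicate 2 only, and 1 of neither. Spearman's rho between the ranks was 0.899 over the 46 summits, and 0.723 over the 1454 other promoter summits found in both lists. Both are descriptions over sites that share libraries and a control, and the optimal list was itself derived from both replicates. The median ratio between the ranks of a site was 1.29 (1.41 for the others), and the highest was 4.33 (73.3 for the others). Replicate 1 gave the higher place to 29 of the 46 and replicate 2 to 17.

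**Figure D3:**
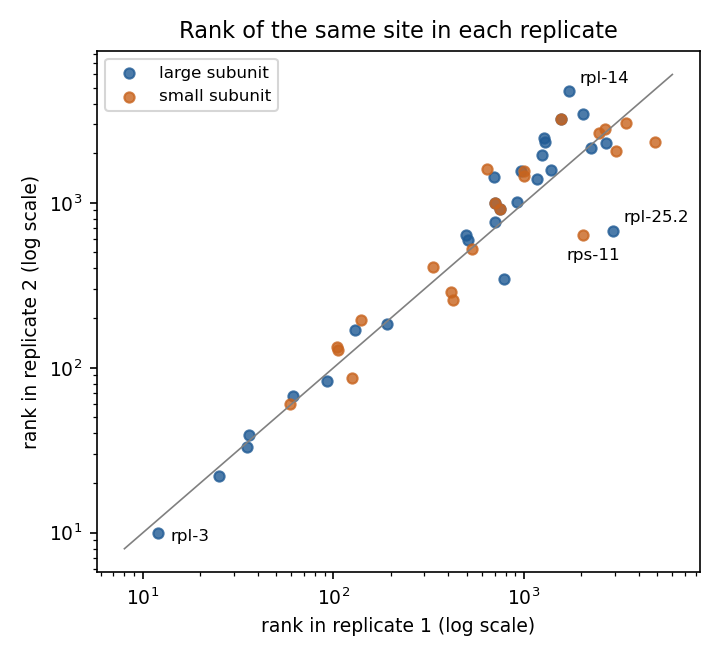
Rank of the peak covering each ribosomal protein summit in replicate 1 (x axis) and replicate 2 (y axis), both on log scales, with large subunit genes in blue and small subunit genes in orange. The line marks equal ranks, rpl-3 stands at 12 and 10, and rpl-25.2 (2933 and 678), rps-11 and rpl-14 lie farthest from it.

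The sites that moved most between replicates were of middle or low signal. The summit of rpl-25.2, shared with C34B7.1, ranked 2933 in replicate 1 and 678 in replicate 2, and rps-11 ranked 2036 and 638. In the other direction, rpl-14 ranked 1724 and 4762, and rps-18, whose summit lay at -627 bp inside its neighbour sec-61.A, ranked 636 and 1607. The ranks of rpl-22 were 781 and 344, and those of rpl-5, which carries the 5S ribosomal RNA into the subunit, 694 and 1444. These genes include both subunits and both directions of change.

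Each replicate was also counted alone. Among the 2796 strongest peaks of replicate 1, 47 of the 78 genes had a promoter summit (60.3%), against 8.65% of all protein-coding genes. In replicate 2 there were 43 (55.1%), against 8.4%. By subunit, replicate 1 gave 27 large and 20 small subunit genes, and replicate 2 gave 25 and 18. In the whole lists of 30000 peaks the percentage over all genes was far higher, and so was that of the ribosomal protein genes. It was 73 of 78 (93.6%, against 36.4%) in replicate 1, 69 (88.5%, against 35.7%) in replicate 2 and 70 (89.7%, against 34.3%) in the pooled list. In the pooled list the subunits were alike, with 42 of 47 large (89.4%) and 28 of 31 small subunit genes (90.3%).

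Most summits lay in a common zone upstream of the gene. The 49 positions had a median of -291 bp with quartiles of -354 and -251 bp, and they ranged from -738 bp at rpl-43 to 149 bp at rps-16. Large and small subunit genes had medians of -290 and -291 bp. Between -450 and -200 bp lay 39 of the 49 (79.6%), against 27.9% of the 1883 summit positions of the other protein-coding genes. The latter had a median of -237 bp and quartiles of -498 and -106 bp. Only 5 ribosomal protein positions (10.2%) lay in the 200 bp directly upstream of the 5' end, where the other genes had 34.5%. The interval from -300 to -200 bp alone held 40.8%, against 14.8%.

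**Figure D4:**
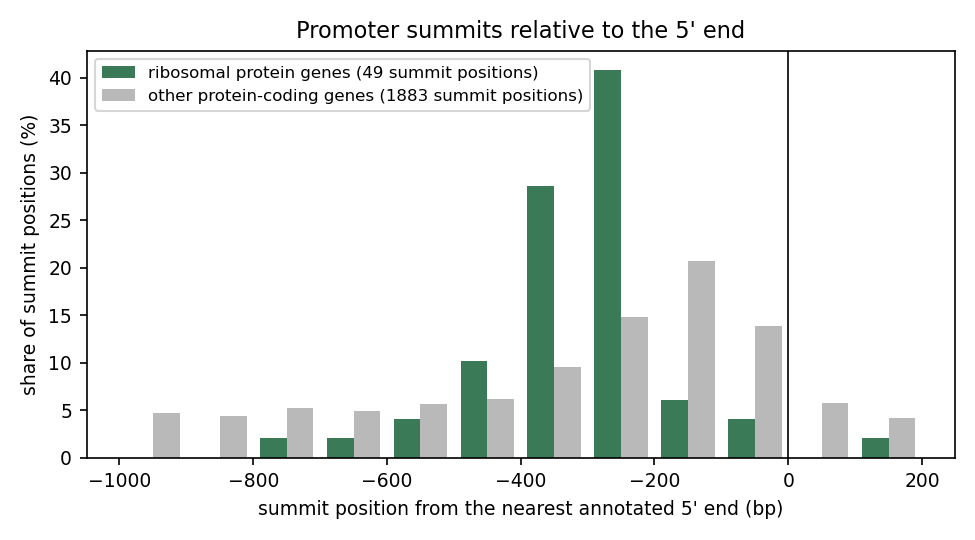
Share of summit positions (y axis, percent) in bins of 100 bp from the nearest annotated 5' end (x axis, negative upstream), for ribosomal protein genes (green, 49 positions) and other protein-coding genes (grey, 1883 positions). The green bars peak between -300 and -200 bp at 40.8%, while the grey ones peak between -200 and -100 bp at 20.7%.

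The share with a summit was also counted by what lies upstream of the gene. Of the ribosomal protein genes, 48 faced a head-to-head neighbour within 2000 bp, and 30 of these had a summit (62.5%, exact 95% interval 47.4 to 76). In 29 of the 30 the summit lay between the facing 5' ends. The class with neither a close same-strand neighbour nor a facing one had 16 of 20 (80%, 56.3 to 94.3). Where a gene on the same strand ended within 500 bp, as in operons, 2 of 8 had one (25%, 3.19 to 65.1), namely rps-16, downstream of the fibrillarin gene fib-1, and rps-17. Among the other protein-coding genes the shares were 14.2%, 6.23% and 8.98% in the same order. The intervals of these classes overlap, and the classes were not compared by a test.

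Other features separated the genes less. With a summit, the median gene length was 684 bp, and without one 889 bp, with a median of 3 exons in both. Of the 13 genes with a small nucleolar RNA gene inside them 8 had a summit (61.5%), and of the 65 without such a gene 41 (63.1%). Among other genes that host one the share was 26.3%, and among other genes that host none 8.58%. Small RNA genes lay within 200 bp of 1 of the 46 summits, and no summit lay inside one. By chromosome the count was 14 of 23 on I, 5 of 10 on II, 13 of 18 on III, 11 of 17 on IV, 5 of 8 on V and 1 of 2 on X. Among the other protein-coding genes the shares were 8.93%, 8.4%, 12.1%, 8.3%, 7.02% and 9.09% in the same order.

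A summit in the optimal list was absent for 29 genes, 19 of the large and 10 of the small subunit. For 21 of them the pooled list still held a promoter summit, at ranks between 2856 and 27118 with a median of 6113, and 10 of these ranked ahead of 5000. Over all protein-coding genes, with or without an optimal summit, 34.3% had a promoter summit in that list. The positions of the 21 summits had a median of -285 bp, against -291 bp for the optimal ones, and ranged from -798 to 163 bp. For weak pooled summits of other genes the positions are not given. Between -450 and -200 bp lay 13 of the 21, against 39 of the 49 optimal positions. Among these were rpl-2 (pooled rank 4265, -368 bp), rpl-4 (4214, -285 bp), rpl-9 (4967, -255 bp) and rps-9 (4264, -234 bp). No list held a promoter summit for rpl-34, rpl-42, rps-2, a protein of the mRNA entry channel, or rps-27. The lists do not give read numbers, so a signal too weak to be listed cannot be told apart from none.

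Several ribosomal proteins of the worm are encoded by gene pairs, and in 3 pairs of similar proteins one gene alone had an optimal summit. For rpl-11.1 and rpl-11.2, whose proteins are identical at 91.3% of aligned residues, rpl-11.2 had signal 417 while rpl-11.1 reached pooled rank 18937. The genes rpl-41.1 and rpl-41.2 encode the same 22 residues, and rpl-41.2 had signal 202 (replicate ranks 703 and 760) while rpl-41.1 was at pooled rank 8185. For rpl-25.1 and rpl-25.2, identical at 70.1%, the summit was at rpl-25.2 (signal 167), and rpl-25.1 had pooled rank 4745 and no summit in the list of replicate 2. The summit of the pooled list at rpl-25.1 lay at 163 bp. Names that share only a number went both ways. Both rpl-24.1 and rpl-24.2 (25.4% identical) and both rpl-36 and rpl-36.A (18.8%) had a summit, while of rpl-7 and rpl-7A (19.4%) only rpl-7A did, with rpl-7 at pooled rank 6113.

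Other genes of the ribosome had a summit less often than the rpl-* and rps-* genes in these counts, with no test between lists. Over all protein-coding genes the share was 8.95%. The mitochondrial ribosome, built from its own set of proteins, had 12 of 70 (17.1%, exact 95% interval 9.18 to 28). By subunit the count was 9 of 41 for its large (22%, 10.6 to 37.6) and 3 of 29 for its small subunit (10.3%, 2.19 to 27.4). The interval of its small subunit holds the share over all genes. The highest mitochondrial signals were 215 at mrps-7, 210 at mrpl-28, 189 at mrpl-12 and 167 at mrpl-23. The summit of mrpl-49 was that of its neighbour rpl-28. Of 6 further cytosolic ribosomal proteins, ubq-2, which encodes a ubiquitin fused to a ribosomal protein, had one (signal 222), while rla-0, rla-1 and rla-2 of the stalk, ubl-1 and rack-1 had none. That share is 16.7% (0.421 to 64.1), an interval that also holds the share over all genes.

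In the list of ribosome production factors, 15 of 40 genes had a summit (37.5%, 22.7 to 54.2). Of these 15, larp-1 and nmad-1 may bear on ribosome production only indirectly. The list was led by larp-1, which binds the messages of ribosomal proteins in mammals (signal 638, rank 84, replicate ranks 95 and 79). The other leading genes were pro-1 (279), the fibrillarin gene fib-1 (238) and tag-151 (225). Of 11 genes of RNA polymerases I and III and their factors 2 had one (18.2%, 2.28 to 51.8), tif-1A (301) and rpac-19 (241). That interval holds the 8.95% of all protein-coding genes. In the TOR pathway, a main regulator of ribosome production, the count was 5 of 14, with rheb-1 at 324, lgg-1 at 251, rict-1 at 142 and hlh-30 at 132.

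**Figure D5:**
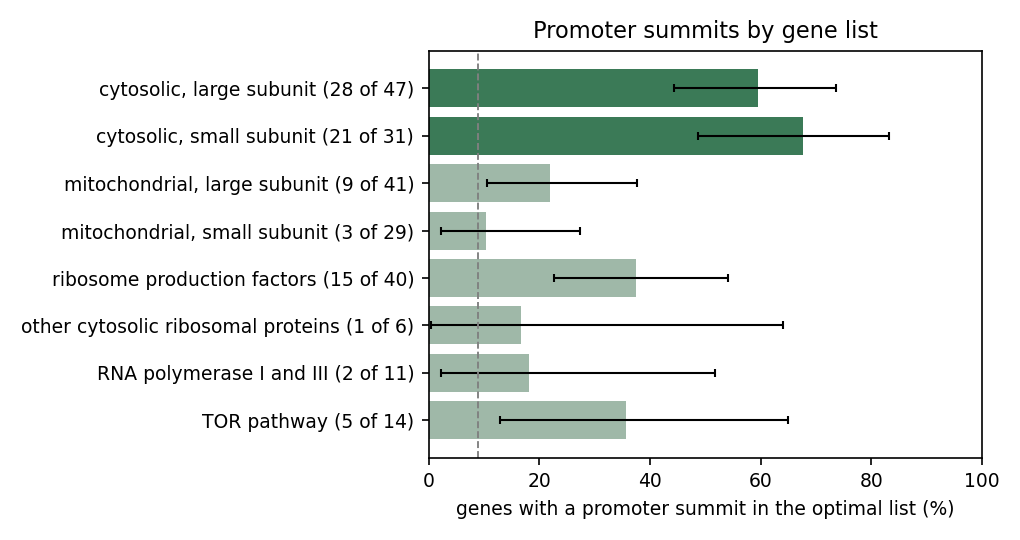
Share of genes with a promoter summit in the optimal list (x axis, percent) by gene list, with the count of genes after each name. Bars are shares, whiskers exact 95% intervals, and the dashed line the 8.95% of all protein-coding genes. The whiskers of both cytosolic subunits clear that line, as do those of the mitochondrial large subunit, the ribosome production factors and the TOR pathway.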

How the data were processed

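The data were peak lists from both replicates, in the genome build ce11. Per the notes deposited by the submitters, 1 control file served both replicates, and the irreproducible discovery rate (IDR) was used to make the optimal list out of the pooled and replicate lists. For the aligner, the peak caller and the IDR threshold, a name or value is not given in the sources used here. Deposited signal is a peak value of the authors and was used only within a list. The lists hold no read numbers, so depth is unknown.

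Promoter windows were built from every transcript 5' end in Ensembl release 115, and every gene whose window held a summit was credited with it. A replicate's strongest peaks were as many as the optimal list holds. Exact (Clopper-Pearson) intervals came from SciPy 1.17.1, tables from pandas 2.3.3, and alignments from Biopython 1.88 under Python 3.11.15. Of the 10 windows that hold the joined element, the sequences of 6 are printed and those of the other 4 are not reported here. Window and word counting were tested on simulated data. With 1 group, no test was made. The ribosomal protein genes and the other lists were chosen with earlier results of these data known, and the 4 words after seeing the summits. Of the other lists, 48 names of ribosome production factors gave 40 genes and 12 names of further cytosolic proteins gave 6. Full values were given for the 10 large and 8 small subunit genes of highest signal, the 6 summits whose ranks differed most between replicates, gene pairs, genes without any summit, and up to 4 genes of each other list. Genes named beyond that rule were chosen after their values were seen.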

Additional observations from a re-analysis of the deposited data

How the results depend on the processing

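The count of 49 of 78 genes stayed within 1.5 times under every alternative but one. With each summit counted only for the protein-coding gene with the nearest 5' end it was 30, with 40.4% of the large and 35.5% of the small subunit genes, the other summits then counting for a neighbour. The whole pooled list gave 89.4% and 90.3%, against 34.3% of all protein-coding genes, and the stronger 50% of the optimal list gave 48.4% of the small subunit genes. With 1 replicate left out the count was 43 to 47, the large subunit share 53.2% to 57.4% and the small subunit share 58.1% to 64.5%. The small subunit share was above the large in 10 of 12 settings. These settings reuse the same peaks and several gave the main counts again, so the tally is no independent support for a difference. Counting each distinct peak once, an alternative added after seeing the data, gave 46. Other windows gave 44 to 49, and overlap of peak and window 49 to 50. For the nearest 5' end, the stronger 50% of the list, the other windows and the overlap, the share over all protein-coding genes is not given. Whether the excess over all genes changes under these settings was therefore not tested. Depth is unknown, so no limit on an unlisted signal can be given. No paired analysis was possible because there is only 1 group.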
